A study of Mus musculus with 15 samples.

Results

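The 9 genes Col1a1, Col1a2, Col3a1, Col6a1, Col6a2, Dcn, Lum, Sparc and Fn1, which code for collagens and other proteins of the extracellular matrix of gut connective tissue, were taken by name from 43626 genes with a value in at least 1 library. All 9 had a value in all 15 libraries and were among the 11496 genes tested. RNA was sequenced from the large intestine of male C57Bl/6 mice aged 4 weeks, in 5 groups of 3 libraries. One agent was cymopol, a compound of the green alga Cymopolia barbata, at 1.4 mmol/kg (high dose, replicates 11, 12 and 14) or 0.3 mmol/kg (low dose, replicates 33, 34 and 35). Other mice received a non-polar algal extract at 1.0 g/kg (high dose, replicates 21, 23 and 25) or 0.3 g/kg (low dose, replicates 26, 27 and 29), and the vehicle group (replicates 2, 4 and 5) received the solvent alone, Cremophor EL with 10% DMSO. All animals were gavaged on 3 days at intervals of 24 h, and the intestine was collected 12 h after the final one. No source used here states that the libraries of 1 group are different animals, so a p-value covers the spread among these samples alone, which may be technical.

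Fibrillar collagens I and III form the tensile fibres of the intestinal submucosa and lamina propria, and collagen VI forms beaded microfilaments close to cells. Collagen I is assembled from chains of Col1a1 and Col1a2, collagen III from chains of Col3a1 alone, and collagen VI from chains that include Col6a1 and Col6a2. Every collagen chain winds into a triple helix that needs glycine at regular intervals. Decorin (Dcn) and lumican (Lum) are small leucine-rich proteoglycans that bind collagen fibrils, osteonectin (Sparc) is a collagen-binding glycoprotein secreted by matrix-producing cells, and fibronectin (Fn1) links the matrix to integrins on the cell surface. In the gut these transcripts come mostly from fibroblasts, with a contribution from smooth muscle and endothelium.

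The repeat that defines the collagens is shown here because it separates the 5 collagen genes from the other 4 members. Each line gives the first 54 bases of the longest run of glycine codons spaced 9 bases apart in a GENCODE M21 transcript, 5′ to 3′. Capitals mark the codons of that spacing alone, and glycine codons between them, as in Col3a1, are in lower case.
Col1a1: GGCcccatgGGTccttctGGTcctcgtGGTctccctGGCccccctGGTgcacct
Col1a2: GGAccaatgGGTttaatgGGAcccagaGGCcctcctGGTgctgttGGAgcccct
Col3a1: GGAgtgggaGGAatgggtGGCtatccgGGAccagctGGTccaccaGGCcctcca
Col6a1: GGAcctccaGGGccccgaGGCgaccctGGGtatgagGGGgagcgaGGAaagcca
Col6a2: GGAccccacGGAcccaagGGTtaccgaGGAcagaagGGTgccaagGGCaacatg

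Counted at that spacing alone, the run held 338 glycine codons in Col1a1, 339 in Col1a2 and 344 in Col3a1. In Col6a1 and in Col6a2 it held 87, which is 19.1% and 19.8% of the transcript's length. The search took any triplet that starts with GG, anywhere in the transcript and without the coding frame, so a short run need not be coding. By that search the longest run in the 4 members that are not collagens was 5 triplets, in Sparc.

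No difference of a matrix gene between groups was detected beyond the spread of the libraries. Expression was analysed as log2(FPKM + 1), where FPKM counts fragments relative to transcript length and library size, and a call needed an adjusted p below 0.05 from limma (Benjamini-Hochberg over all genes tested). In the test for any difference among the 5 groups, 0 of 9 members were called (lowest adjusted p = 0.790, limma), and 0 had an unadjusted p under 0.05, beside 0.0261% of all genes called and 7.26% with an unadjusted p under 0.05. In each of the 7 comparisons between pairs of groups 0 of 9 members were called, beside 0% to 0.0174% of all genes, and 0 of 9 had an unadjusted p under 0.05, beside 1.73% to 13.2% of all genes. The standard error of a member's log2 difference lay between 1.01 and 1.30. The 95% interval, which is not adjusted for the number of genes tested, reached a median of 2.43 to either side. A difference inside that width could not be told from 0 given the spread among these libraries. A call needed a larger difference still, since its p is adjusted over all genes tested.

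The libraries differed in depth, in the share of fragments inside genes and in the level of genes detected in all of them. These differences limit every level given here, and the part of each was not tested. By estimates from the deposited bounds, 287863 to 342018 fragments fell in protein-coding genes in the high cymopol dose libraries, 31770 to 182609 in the low cymopol dose, 174898 to 556087 in the high extract dose, 28065 to 105969 in the low extract dose and 25114 to 226447 in the vehicle. Genes held 65.2% to 65.4% of the fragments in the high cymopol dose libraries and 8.50% to 46.5% in the vehicle libraries. The level of 1918 genes detected in every library, taken as a median-of-ratios factor, was 0.0652 in low extract dose replicate 26 and 0.149 in vehicle replicate 2. It was 0.535 in low cymopol dose replicate 33 and 1.10 to 2.404 in the other 12 libraries. Vehicle replicate 5 had the fewest fragments, 25114, and a factor of 1.386, while vehicle replicate 2 had 51602 fragments. Values divided by these factors are called scaled. In whole tissue, fewer cells of a type and less RNA per cell cannot be told apart.

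Among the fibrillar collagens, Col1a1 (chr11:94936224-94953042, GRCm38, plus strand) had 9.85, 34.2 and 11.0 FPKM in the high cymopol dose, 5.79, 14.8 and 13.9 in the high extract dose, and 3.03, 19.5 and 8.30 in the vehicle. Its low dose levels were 6.26, 6.00 and 21.7 FPKM with cymopol and 0.11, 8.56 and 8.01 with the extract. Each treated group overlapped the vehicle, and the value of 0.11 FPKM in low extract dose replicate 26 was the lowest of the 15. The log2 difference was 0.86 ± 1.17 (SE, n = 3 each) between the high cymopol dose and the vehicle and 0.35 ± 1.17 between the high extract dose and the vehicle (limma adjusted p = 0.747 and 0.922). After scaling the signs turned, to -0.28 and -0.60.

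Col1a2 (chr6:4504814-4541544, plus strand), the partner chain of collagen I, had 29.6, 46.1 and 17.4 FPKM in the high cymopol dose, 8.54, 21.0 and 7.04 in the high extract dose, and 2.43, 17.8 and 20.6 in the vehicle. At the low doses it had 38.4, 19.8 and 16.9 FPKM with cymopol and 3.48, 10.3 and 26.6 with the extract. In the high cymopol dose, replicates 11 and 12 lay above every vehicle library and replicate 14 did not. This gave the highest log2 difference among the members in that comparison, 1.42 ± 1.19 (limma adjusted p = 0.594, 95% interval -0.9985 to 3.83). Scaling brought it to 0.28. Against the vehicle, the high extract dose differed by 0.09 ± 1.19 (limma adjusted p = 0.986), and by -0.84 after scaling.

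Col3a1 (chr1:45311538-45349706, plus strand) had 61.4, 61.3 and 45.0 FPKM in the high cymopol dose, 60.9, 32.0 and 14.6 in the high extract dose, and 12.1, 143.5 and 24.8 in the vehicle. With low doses it had 135.1, 80.8 and 29.4 FPKM for cymopol and 5.97, 8.58 and 24.1 for the extract. The highest of all 15 values was thus a vehicle library, replicate 4, and the 3 high cymopol dose libraries stood between that library and the other 2. The log2 difference from the vehicle was 0.63 ± 1.25 in the high cymopol dose and -0.21 ± 1.25 in the high extract dose (limma adjusted p = 0.831 and 0.962). In scaled values both were below 0, at -0.61 and -1.25.

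The collagen VI genes Col6a1 and Col6a2 are neighbours on chromosome 10, and their levels were not alike across the vehicle libraries. Col6a1 (chr10:76708792-76726168, minus strand) had 19.4, 32.9 and 31.0 FPKM in the high cymopol dose, 13.1, 27.3 and 24.2 in the high extract dose, and 0.63, 22.1 and 63.8 in the vehicle. Vehicle replicates 2 and 5 held the lowest and the highest of all 15 values. At the low doses it had 12.2, 16.4 and 35.1 FPKM with cymopol and 0.74, 22.8 and 13.8 with the extract. Its log2 difference from the vehicle was 1.06 ± 1.30 in the high cymopol dose and 0.68 ± 1.30 in the high extract dose (limma adjusted p = 0.719 and 0.850), and 0.16 and -0.04 after scaling.

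Col6a2 (chr10:76595762-76623630, minus strand) was the member with the tightest levels in a treated group. It had 16.0, 14.1 and 12.5 FPKM in the high extract dose, against 1.61, 10.5 and 7.09 in the vehicle. The low extract dose had 0.03, 9.22 and 11.7 FPKM. Every high extract dose library lay above every vehicle library and above every low extract dose library. The exact two-sided permutation test gave p = 0.1 in both cases, the smallest it can give for 3 against 3. Separation of this kind, with the high extract dose above, was seen for 19.3% of all genes against the vehicle and for 20.9% against the low extract dose, and for 1 of the 9 members in each comparison. The log2 difference was 1.28 ± 1.17 from the vehicle (limma adjusted p = 0.672) and 1.57 ± 1.17 from the low extract dose (limma adjusted p = 0.640). Scaled levels overlapped in both comparisons, with differences of 0.37 and 0.97. The difference from the low extract dose was 0.41 without low extract dose replicate 26 and 2.22 without low extract dose replicate 29, and that from the vehicle was 0.65 without vehicle replicate 2. Between the low extract dose and the vehicle Col6a2 differed by -0.29 ± 1.17 (limma adjusted p = 1), and by 0.87 without low extract dose replicate 26.

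In the high cymopol dose Col6a2 had 16.8, 22.4 and 9.61 FPKM, and in the low cymopol dose 2.53, 8.95 and 18.4. Replicate 14 of the high dose fell inside the vehicle's range. The high cymopol dose differed from the vehicle by 1.39 ± 1.17 (limma adjusted p = 0.594), or 0.31 after scaling.

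**Figure D1:**
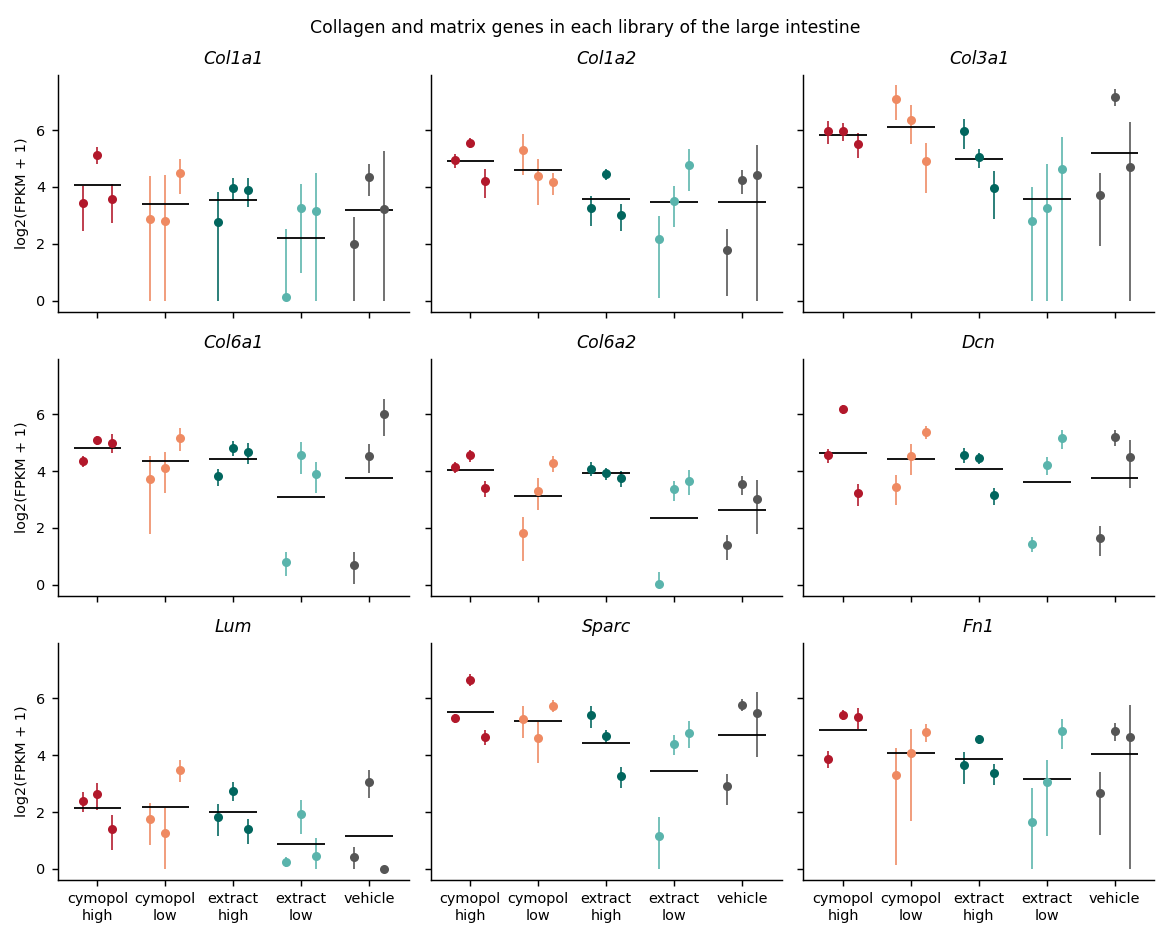
Level of each of the 9 matrix genes in each library, as log2(FPKM + 1). Points are libraries in order of replicate number, vertical lines are the authors' lower and upper bounds of the FPKM, and horizontal bars are group means (n = 3). The points of most groups overlap, and the single low points in vehicle and low extract dose are mostly replicates 2 and 26.

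Of the proteoglycans, Dcn (chr10:97479609-97518143, plus strand) had 22.6, 71.3 and 8.27 FPKM in the high cymopol dose, 22.7, 21.0 and 7.82 in the high extract dose, and 2.11, 35.5 and 21.3 in the vehicle. In the low dose groups the levels were 9.72, 21.9 and 40.6 FPKM with cymopol and 1.71, 17.7 and 34.8 with the extract. The high cymopol dose held both the highest of the 15 values and one below 2 of the 3 vehicle libraries. The log2 difference from the vehicle was 0.88 ± 1.28 for the high cymopol dose and 0.29 ± 1.28 for the high extract dose (limma adjusted p = 0.764 and 0.944), and -0.21 and -0.63 in scaled values.

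Lum (chr10:97565128-97572703, plus strand) was the least abundant member. It had 4.28, 5.14 and 1.66 FPKM in the high cymopol dose, 2.52, 5.75 and 1.62 in the high extract dose, and 0.33, 7.38 and 0 in the vehicle. The listing at 0 in vehicle replicate 5 was the only one among the 135 values of the members, and it is given as a listing at 0 and not as absence of the transcript. Cymopol at the low dose had 2.38, 1.42 and 10.3 FPKM and the extract at the low dose 0.19, 2.83 and 0.38. Differences from the vehicle were 0.98 ± 1.01 in the high cymopol dose and 0.83 ± 1.01 in the high extract dose on the log2 scale (limma adjusted p = 0.662 and 0.761). They stayed above 0 after median-of-ratios scaling, at 0.24 and 0.19, and were -0.05 and -0.14 after quantile normalization.

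Sparc (chr11:55394500-55423183, minus strand) had 38.2, 99.2 and 23.9 FPKM in the high cymopol dose, 41.1, 24.5 and 8.54 in the high extract dose, and 6.45, 53.9 and 43.9 in the vehicle. The low doses gave 37.8, 23.4 and 52.4 FPKM with cymopol and 1.25, 20.2 and 26.7 with the extract. The high extract dose lay inside the range of the vehicle, and high cymopol dose replicate 12 alone lay above it. The log2 difference from the vehicle was 0.81 ± 1.27 in the high cymopol dose and -0.28 ± 1.27 in the high extract dose (limma adjusted p = 0.782 and 0.945). After scaling it was -0.40 and -1.29.

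For Fn1 (chr1:71585520-71653200, minus strand) the levels were 13.7, 41.8 and 39.1 FPKM in the high cymopol dose, 11.6, 22.5 and 9.32 in the high extract dose, and 5.38, 27.8 and 23.8 in the vehicle. Cymopol at the low dose had 8.96, 15.7 and 27.1 FPKM and the extract at the low dose 2.13, 7.28 and 27.6. As deposited, all 4 treated groups overlapped the vehicle. The log2 difference from the vehicle was 0.82 ± 1.19 in the high cymopol dose and -0.19 ± 1.19 in the high extract dose (limma adjusted p = 0.763 and 0.963). In scaled values these became -0.37 and -1.19, and all 3 high extract dose libraries then lay below all 3 vehicle libraries (exact two-sided permutation p = 0.1). Fn1 was the 1 member of 9 so separated, and 3.33% of all genes were lower without overlap in the same scaled comparison.

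Read across the members, the high cymopol dose was above the vehicle for 9 of 9, with a median log2 difference of 0.88, beside a median of 0.81 over all genes, of which 79.5% were above 0; after scaling 4 of 9 were above 0 and the medians were -0.21 over the members and 0.24 over all genes. The test called 0 of 9 members and 0.0174% of all genes, and an unadjusted p under 0.05 was reached by 0 of 9 and 13.2%. No member was separated from the vehicle without overlap, as against 19.5% of all genes that lay higher in this way. The median over the members was 0.13 without vehicle replicate 2 and 1.59 without vehicle replicate 4.

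With the high extract dose, 6 of 9 members were above the vehicle and the median difference was 0.29, beside 0.71 over all genes, of which 77.1% were above 0; after scaling 2 of 9 were above 0 and the medians were -0.63 over the members and 0.25 over all genes. The test called 0 of 9 members and 0.0087% of all genes here, and 0 of 9 and 11.6% had an unadjusted p under 0.05. The median was -0.78 without vehicle replicate 2 and 0.93 without vehicle replicate 4. Summed over the 9 members, the high extract dose libraries had 182.2, 182.8 and 99.5 FPKM, against 34.0, 338 and 213.6 in the vehicle. Scaled sums were 125.1, 83.6 and 80.1 in the high extract dose and 228.4, 171.4 and 154.1 in the vehicle. The groups overlapped as deposited, and the high extract dose lay wholly below the vehicle once scaled. By gene, Fn1 was the 1 member of 9 so separated after scaling, beside 3.33% of all genes. No share of all genes stands beside a sum over 9 genes, and the scaled sum of vehicle replicate 2 rests on its factor of 0.149.

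As deposited, the low doses gave opposite signs against the same 3 vehicle libraries. Cymopol at the low dose was above the vehicle for 9 of 9 members, with log2 differences of 0.01 to 1.13 and a median of 0.59, beside 0.23 over all genes, of which 58.9% were above 0 (lowest limma adjusted p = 0.954). After scaling 5 of 9 were above 0, and the medians were 0.16 over the members and 0 over all genes. The extract at the low dose was above the vehicle for 0 of 9, with a median of -0.66, beside -0.14 over all genes, of which 41.8% were above 0 (every limma adjusted p = 1). After scaling 4 of 9 were above 0, and the medians were -0.29 over the members and -0.007 over all genes. In both comparisons 0 of 9 members and 0% of all genes were called, and 0 of 9 had an unadjusted p under 0.05, beside 5.68% of all genes with cymopol and 3.91% with the extract. The extract median as deposited depended on single libraries, being 0.04 without low extract dose replicate 26 and -1.56 without vehicle replicate 2. The low cymopol dose median was -0.40 without vehicle replicate 2 and 1.02 without vehicle replicate 4. One member, Sparc, lay below the vehicle without overlap in the low extract dose after scaling, as did 3.42% of all genes.

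**Figure D2:**
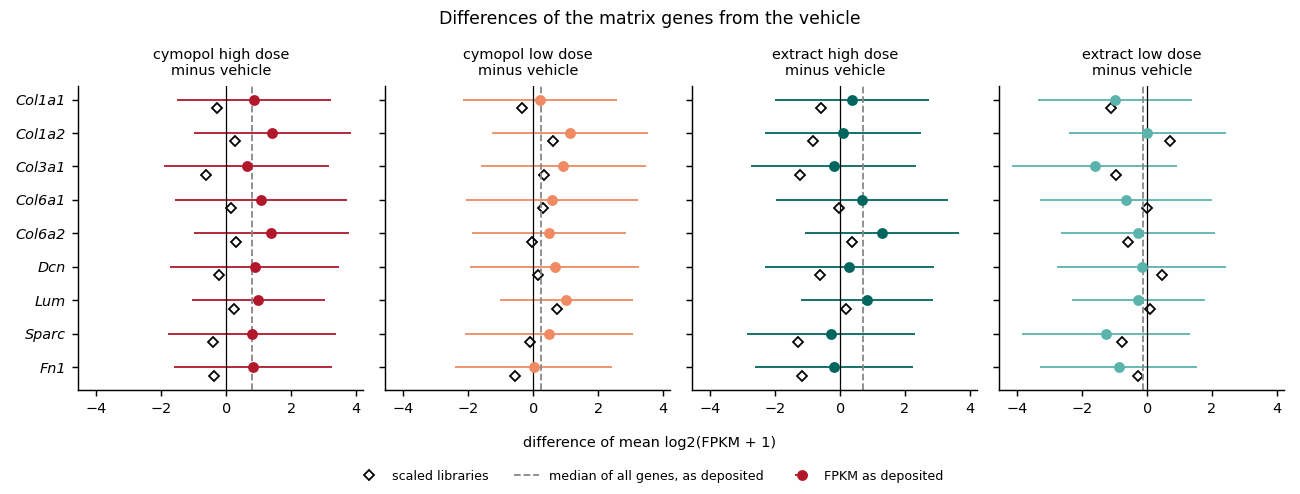
Difference of the mean log2(FPKM + 1) between each treated group and the vehicle for the 9 matrix genes, with the 95% interval from limma (filled points and lines), the same difference in scaled libraries (open diamonds) and the median of all genes as deposited (dashed line). Every interval crosses 0. Scaling moved the 2 high dose groups and the low cymopol dose to lower values, and moved members of the low extract dose in both directions.

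The high and low doses of each agent were also compared. Between the cymopol doses, 7 of 9 members were higher at the high dose, with a median log2 difference of 0.32, beside 0.60 over all genes, of which 76.8% were above 0. After scaling 3 of 9 members were higher, with medians of -0.31 over the members and 0.25 over all genes. The lowest limma adjusted p was 0.910, with 0.0087% of all genes called and 5.84% at an unadjusted p under 0.05. Leaving out 1 library at a time, the median as deposited lay between -0.04 (without high cymopol dose replicate 12) and 0.68 (without low cymopol dose replicate 35). Between the extract doses, 9 of 9 were higher at the high dose, with a median of 1.10, beside 0.89 over all genes, of which 88% were above 0. After scaling 3 of 9 members were higher, and the medians were -0.29 over the members and 0.30 over all genes. The lowest limma adjusted p was 0.640, with 0.0087% of all genes called and 7.28% at an unadjusted p under 0.05. The median was 0.20 without low extract dose replicate 26 and 1.65 without low extract dose replicate 29. Dcn was lower at the high extract dose without overlap in scaled values, as were 2.27% of all genes. The difference between the dose effects of cymopol and of the extract was called for 0 of 9 members and for 0% of all genes, with 1.72% at an unadjusted p under 0.05 (lowest unadjusted p of a member 0.336, limma adjusted p = 1).

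Set side by side at their high doses, which are in different units and not matched, cymopol was above the extract for 9 of 9 members, with a median log2 difference of 0.59, beside 0.11 over all genes, of which 57.5% were above 0. After scaling 8 of 9 members were above 0, and the medians were 0.42 over the members and -0.007 over all genes. None was called (every limma adjusted p = 1), and 0.0174% of all genes were, with 1.73% at an unadjusted p under 0.05. The highest difference was that of Col1a2, 1.33 ± 1.19 as deposited and 1.12 in scaled values. Scaled, its 3 cymopol libraries lay above its 3 extract libraries, as did 4.31% of all genes, with an exact two-sided permutation p = 0.1. The median was 0.24 without high cymopol dose replicate 12. These comparisons share libraries with the comparisons to the vehicle and are not independent of them.

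The members also varied within groups. The median SD of log2(FPKM + 1) over the 9 members was 0.68 in the high cymopol dose, 0.96 in the low cymopol dose, 0.70 in the high extract dose, 1.77 in the low extract dose and 1.59 in the vehicle. The highest vehicle value exceeded the lowest by 5.16-fold for Fn1 and by 102-fold for Col6a1, the ends of the range over the 8 members detected in all 3 vehicle libraries. In the high extract dose this ratio lay between 1.28 for Col6a2 and 4.81 for Sparc. High cymopol dose replicate 12 held the highest value of 6 of the 9 members, and low extract dose replicate 26 the lowest of 6. After scaling, high cymopol dose replicate 12 held the highest value of 1 member and low extract dose replicate 26 the lowest of 2.

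Summed over the members, the other groups had 215.7, 414.3 and 187 FPKM in the high cymopol dose, 253.3, 194.4 and 251.7 in the low cymopol dose, and 15.6, 107.3 and 173.7 in the low extract dose. Scaled sums were 156.8, 172.3 and 106.2 in the high cymopol dose, 473.5, 126.3 and 134.8 in the low cymopol dose, and 239.4, 97.9 and 129.3 in the low extract dose. The low sums of vehicle replicate 2 and low extract dose replicate 26 were thus among the highest after scaling, and low cymopol dose replicate 33 stood highest of all.

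**Figure D3:**
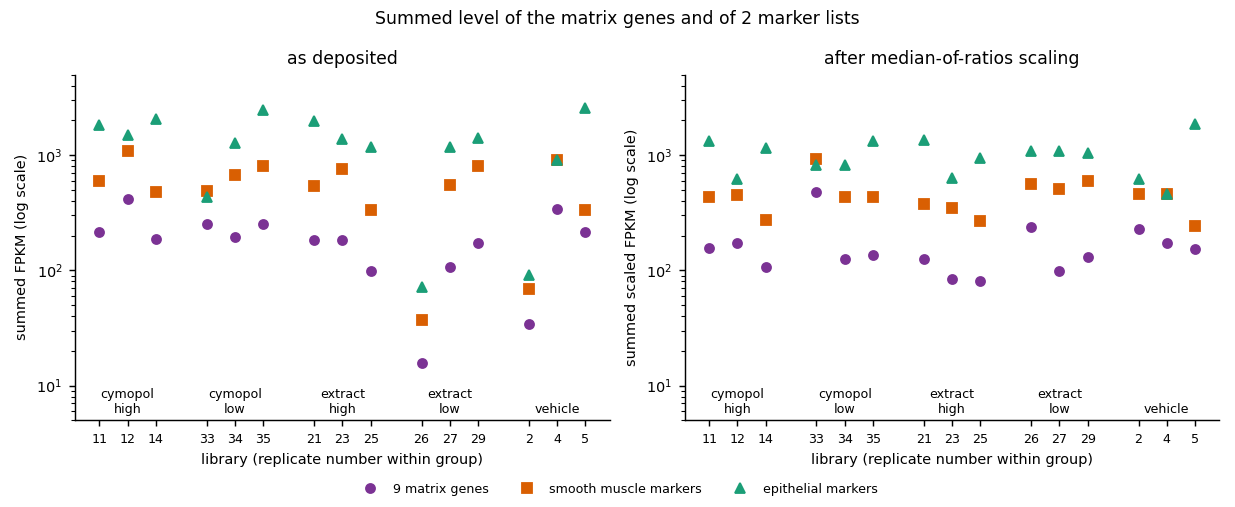
Summed FPKM of the 9 matrix genes, of 8 smooth muscle markers and of 9 epithelial markers in each library, as deposited (left) and after median-of-ratios scaling (right), on log axes. Vehicle replicate 2 and low extract dose replicate 26 are low for all 3 lists as deposited, at 34.0 and 15.6 FPKM for the matrix genes, while their scaled sums for the matrix genes are 228.4 and 239.4; the scaled epithelial sum of vehicle replicate 2 is still the second lowest.

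FPKM is expressed per length, so the levels of the genes are set side by side here. The limit is that 102 of the 135 member values came from loci assembled in single libraries. The length behind such a value can differ between genes and between libraries. By the median over the 15 libraries the order was Col3a1 (32.0 FPKM), Sparc (26.7), Col6a1 (22.1), Dcn (21.3), Col1a2 (17.8), Fn1 (15.7), Col6a2 (10.5), Col1a1 (8.56) and Lum (2.38). Only the last step was clear within libraries, with Col1a1 above Lum in 14 of 15. Fn1 was above Col6a2 in 11 of 15, and Col3a1 above Sparc and Sparc above Col6a1 in 10 of 15 each. For the remaining neighbours the gene ranked higher was above the other in 5 to 9 of 15, which is no order beyond the spread. Col1a2, Col3a1, Sparc and Fn1 were above the 75th percentile of the genes tested in all 15 libraries, whereas Lum was above it in 2.

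Ratios within a library do not depend on its scaling, but the limit from the lengths of assembled loci holds for them too. Col3a1 exceeded Col1a1 in 15 of 15 libraries, with a median ratio of 3.98 and a range of 1.00 to 54.5. Dcn exceeded Lum in all 14 libraries with Lum above 0, with a median ratio of 5.76 and a range of 3.65 to 92.4. Col1a2 exceeded its partner chain Col1a1 in 11 of 15 libraries (median ratio 1.47, range 0.51 to 31.8), and Col6a1 exceeded Col6a2 in 13 of 15 (median ratio 1.93, range 0.39 to 25.0). The Col1a2 to Col1a1 ratio was 1.35 to 3.00 in the high cymopol dose, 0.51 to 1.47 in the high extract dose and 0.80 to 2.48 in the vehicle, and the groups overlapped. The widest ratios of the collagens were those of low extract dose replicate 26, in which Col1a1 and Col6a2 were near 0.

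**Figure D4:**
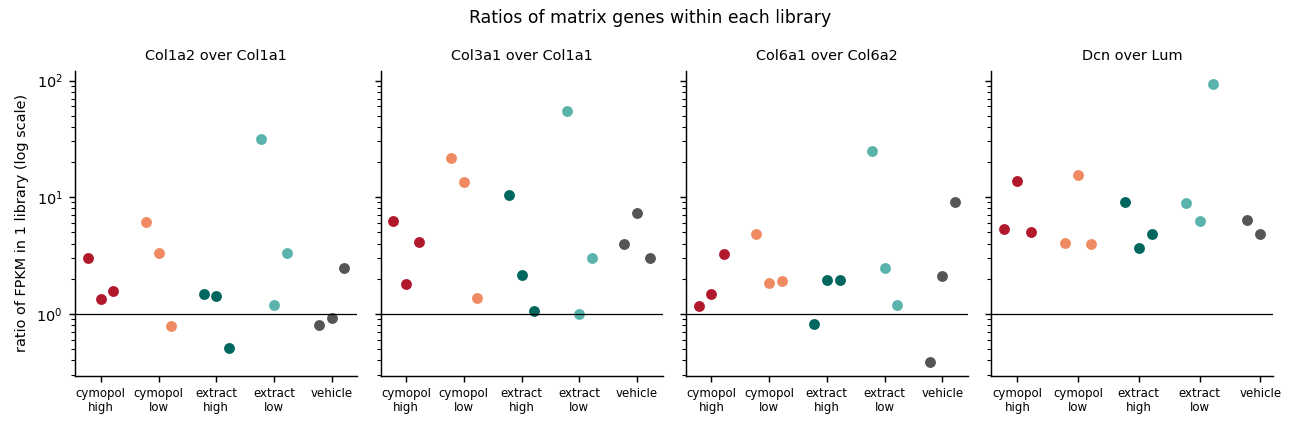
Ratio of the FPKM of 2 matrix genes within each library, on a log axis, with 1 point per library and a line at 1. Col3a1 lies above Col1a1 and Dcn above Lum in every library shown, while the other ratios fall on both sides of 1.

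The members moved together across libraries as deposited. Over the 36 pairs of members, Pearson's r of log2(FPKM + 1) across the 15 libraries had a median of 0.73 and a range of 0.41 to 0.89, and after scaling a median of 0.05 and a range of -0.56 to 0.67. These are descriptions, since the libraries share groups and differ in depth. The 5 genes most like the members, by the correlation over 15 libraries of the gene with the mean of the members after each library's median was subtracted, were Atp2b4 (r = 0.92), a plasma membrane calcium pump, Pgm5 (0.91), a phosphoglucomutase-like protein, 2610507B11Rik (0.91), Des (0.91), the muscle filament protein desmin, and Eif4g2 (0.90), a translation factor. With scaled values their r with the members was 0.74, 0.80, 0.48, 0.82 and 0.64. In vehicle replicate 5, low extract dose replicate 26 and low cymopol dose replicate 33, subtracting the library's median left the members' values unchanged. In those libraries the first set of r therefore carries no correction for a shift in the level of all genes.

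Markers of fibroblast identity were measured beside the members as a check of their label. Of 16 listed, 9 were tested and 0 were called in any comparison between pairs of groups, beside 0% to 0.0174% of all genes. The most abundant were gelsolin (Gsn) and vimentin (Vim), a filament protein of mesenchymal cells, with means of 37.4 and 30.2 FPKM over the 15 libraries, followed by the fibroblast receptor Pdgfra with 6.09 FPKM. The summed level of the 9 was 89.6 to 181.7 FPKM in the high cymopol dose, 73.9 to 123 in the low cymopol dose, 37.5 to 115.7 in the high extract dose, 12.7 to 130.2 in the low extract dose and 5.75 to 230.4 in the vehicle. In vehicle replicates 2 and 5, 4 and 5 of the 9 were at 0. Vim was at 0 in vehicle replicate 5, in which Col1a2, Sparc and Fn1 had 20.6, 43.9 and 23.8 FPKM.

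Summed levels of markers of other cell types also varied between these libraries. The 8 smooth muscle markers, led by Acta2, Tagln and Actg2, summed to 478.5 to 1078 FPKM in the high cymopol dose, 331.1 to 756 in the high extract dose and 68.8 to 909.1 in the vehicle. They exceeded the sum of the members in all 15 libraries. The 9 epithelial markers, led by Car1, Krt19 and Krt8, summed to 1499 to 2040 FPKM in the high cymopol dose, 1164 to 1982 in the high extract dose and 91.9 to 2568 in the vehicle. The 6 adipocyte markers reached 365.1 FPKM in vehicle replicate 4, which was also the library with the highest Col3a1, and the 6 immune markers 473.3 FPKM in the same library. The part of these cell types in the levels of the matrix genes was not tested.

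Genes of the other lists, of the matrix, its pathways and its neighbouring cell types, gave no calls either. Over 16 lists with 140 tested genes, 0 were called in any of the 7 comparisons, beside 0% to 0.0174% of all genes. The lowest limma adjusted p was 0.295, in the enteric neuron and glia markers, in the high cymopol dose against the vehicle. In that comparison 10 of 12 other fibrillar and network collagens were above the vehicle, as were 79.5% of all genes. Their median log2 difference was 1.39, beside 0.81 over all genes and 0.88 over the members. Col4a1, a basement membrane collagen, had 39.4, 41.4 and 17.9 FPKM in the high cymopol dose, against 1.45, 18.4 and 32.0 in the vehicle. Of the enzymes and chaperones of collagen synthesis and crosslinking, 13 of 14 were above the vehicle with a median of 1.03. Serpinh1, the collagen chaperone, had 19.4, 21.7 and 11.5 FPKM in the high cymopol dose, against 0.95, 7.75 and 2.97 in the vehicle. Its 3 treated libraries lay above the 3 vehicle libraries, as did 19.5% of all genes.

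In the high extract dose the medians of these 2 lists were smaller. The other collagens had a median log2 difference from the vehicle of 0.95 with 9 of 12 above 0, and the synthesis and crosslinking genes one of 0.51 with 10 of 14 above 0, beside 0.71 over all genes. Other matrix glycoproteins and elastic fibre genes had 22 of 22 above the vehicle in the high cymopol dose and 18 of 22 in the high extract dose, with medians of 1.02 and 0.73. Of all genes, 79.5% and 77.1% were above the vehicle, with medians of 0.81 and 0.71. Of the matrix proteases and their inhibitors, 4 of 5 and 2 of 5 were above the vehicle. In the TGF-beta pathway, a known inducer of collagen genes, 9 of 11 and 8 of 11 were, with medians of 0.88 and 0.73. All these values of the lists are as deposited, and no scaled differences were computed for the lists. Among the members, 9 of 9 above the vehicle in the high cymopol dose became 4 of 9 after scaling.

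The width of the deposited bounds gave an estimate of the fragments behind each value, which is too low wherever the bounds are wider than counting alone would make them. The median estimate per library was 5.08 for Col1a1, 14.7 for Lum, 19.7 for Col3a1, 25.0 for Col1a2, 30.1 for Fn1, 30.4 for Col6a1, 54.6 for Sparc, 63.4 for Col6a2 and 72.8 for Dcn. Some estimates were too small to be counts, such as 0.0023 fragments for Col1a1 in low extract dose replicate 26, so the members are not ranked by them. The lower bound of the FPKM was 0 for 20 of the 135 member values.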

How the data were processed

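The authors deposited 1 table per library, with FPKM and its lower and upper bounds, made from ribosome-depleted total RNA (90 ng). The submitters' processing notes name STAR 2.4.0j as a tool and GRCm38.p4 as the build. The layout is a Cufflinks tracking table, per the file headers, and the version that made it is not given in the sources used here. Each table lists annotated genes by Ensembl identifier and loci assembled in that library alone. An assembled locus was given to a GENCODE M21 gene without a row of its own when their overlap covered at least 0.5 of their joint span and neither had a better match. For 6 of the 9 members (Col1a1, Col1a2, Col3a1, Col6a1, Sparc and Fn1) no library had a row under the gene's own identifier, and 102 of the 135 member values came from assembled loci.

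Genes valued in each of the 15 libraries, 3 or more of them at 1 FPKM or above, were tested as log2(FPKM + 1), since the tables hold no counts. A model with 1 mean per group was fitted with limma 3.58.1 (intensity trend) in R 4.3.3, two-sided, with Benjamini-Hochberg adjustment over the 11496 genes. A difference of log2(FPKM + 1) understates the change of low genes. Single genes were also tested with an exact permutation test, whose smallest p for 3 against 3 is 0.1. Fragments were estimated from the width of the bounds, and are too low where the bounds are wider than counting alone would make them. What else the bounds cover is not stated. An assumed fragment length of 200 bp entered only the alternative in which assembled pieces inside exons were added to a gene. The libraries held an estimated 25114 to 556087 fragments in protein-coding genes. Scaled values are FPKM divided by a median-of-ratios factor from 1918 genes detected in every library.

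The members and the gene lists were chosen with earlier results of these data known. All 9 members are named, as are the 5 genes most like them. Of each list the 3 genes with the highest mean FPKM could be named. Alternatives were the scaling, quantile normalization, the pseudocount, the filter, the handling of assembled loci, array weights, the groups fitted and leaving out each library. No label gives a batch.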

Additional observations from a re-analysis of the deposited data

How the results depend on the processing

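No alternative gave a call among the 9 matrix genes: over 223 alternative values of the counts in 25 settings, 0 members were called, and the lowest limma adjusted p was 0.267. Of all genes tested (1097 to about 42990), 0 to 13 were called per setting and comparison, so 0 of 9 is nothing particular to the members. A median counted as moved only where it changed by at least the spread between libraries (SD 1.17). That limit is wider than every median as deposited, so a change of sign could count as unmoved. The high cymopol dose against the vehicle, at 0.88 as deposited and -0.21 with median-of-ratios scaling, was such a case. By this wide limit, 173 of 175 alternative values of the members' median log2 difference did not move. The other 2 were those of the high extract dose against the low extract dose, -0.29 with median-of-ratios scaling and -0.23 with quantile normalization, in place of 1.10. Without vehicle replicate 2 and low extract dose replicate 26, a choice made after seeing the data, the medians were 0.20 for that comparison, 0.13 and -0.78 for the high cymopol and high extract doses against the vehicle, and -0.57 for the low extract dose against the vehicle, with 0 calls.

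Single log2 differences changed sign in 37 of 485 alternative values, and the cause was not tested. In the high cymopol dose against the vehicle, median-of-ratios scaling gave -0.28 for Col1a1, -0.61 for Col3a1, -0.21 for Dcn, -0.40 for Sparc and -0.37 for Fn1, and quantile normalization gave -0.051 for Lum. In the high extract dose against the vehicle, the scaling gave -0.60 for Col1a1, -0.84 for Col1a2, -0.036 for Col6a1 and -0.63 for Dcn. There quantile normalization gave -0.26 for Col1a1, -0.42 for Col1a2, -0.17 for Dcn and -0.14 for Lum, and array weights gave -0.32 for Col1a2 and 0.00024 for Col3a1. In the low extract dose against the vehicle, Col6a2 was 0.039 with quantile normalization and 0.33 with array weights.

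Leaving out 1 library at a time, the high cymopol dose differed from the vehicle by 0.27 to 1.44 for Col1a1, 0.56 to 1.89 for Col1a2, -0.12 to 1.62 for Col3a1, -0.46 to 2.20 for Col6a1, 0.76 to 1.84 for Col6a2, -0.18 to 1.60 for Dcn, 0.40 to 1.94 for Lum, -0.11 to 1.33 for Sparc and 0.13 to 1.32 for Fn1. The high extract dose differed from it by -0.24 to 0.93 for Col1a1, -0.76 to 0.57 for Col1a2, -0.95 to 0.79 for Col3a1, -0.84 to 1.82 for Col6a1, 0.65 to 1.72 for Col6a2, -0.78 to 1.00 for Dcn, 0.25 to 1.78 for Lum, -1.19 to 0.31 for Sparc and -0.88 to 0.20 for Fn1. Col6a2 lay between -0.95 and 0.87 in the low extract dose against the vehicle and between 0.41 and 2.22 in the high against the low extract dose, and Col1a2 between 0.99 and 1.77 in the high cymopol dose against the high extract dose. With annotated identifiers only, 1 member (Lum) could be tested. No paired analysis was possible because the groups share no replicate numbers. Depth limits all of these values, most of all in vehicle replicates 2 and 5, low extract dose replicate 26 and low cymopol dose replicate 33.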

Other observations

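Assembled loci that were given to no gene also lay inside the matrix genes. There were 18 of them in 7 of the 9 members, and 0 were exonic. Vehicle replicate 4 and high extract dose replicate 23 held 5 each and vehicle replicate 2 held 3.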
